A study of Mus musculus with 11 samples.

Results

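Colipase (Clps) and 9 pancreatic-type digestive enzymes were followed in mouse (Mus musculus) gastric corpus mucosa by bulk RNA sequencing. The 10 genes, of 34866 in the deposited table, were chosen by name with their levels in these same 11 samples already known. Their levels and fold changes are therefore given as a description, with no test. The 4 genotypes were wild type (labelled WT and called control, 2 samples) and 3 engineered lines of 3 samples each, named ATP4B-DTR, GIF-DTR and, for the combined line, GIF/ATP4B-DTR. DTR is the diphtheria toxin receptor, and the lines were made for the ablation of parietal cells (Atp4b), chief cells (Gif, intrinsic factor) or both. The strain, age, sex, toxin treatment and time of collection are not given in the sources used here, nor whether the wild-type mice received toxin. Y-linked genes were high in both controls and low in all GIF-DTR samples, so GIF-DTR against control cannot be told apart from that division for any gene. The labels do not say whether replicates were separate animals, so a p-value measures the spread between these samples only.

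Colipase is the small secreted protein that anchors pancreatic lipase to fat droplets coated with bile salts. Pancreatic acinar cells secrete it together with lipases, carboxypeptidases and the trypsin, chymotrypsin and elastase zymogens. Chief cells of the stomach are the enzyme-secreting cells at the gland base and make pepsinogen C (Pgc), intrinsic factor (Gif, in the mouse) and acidic chitinase (Chia1). The question was which of the 10 genes moved with the chief cell genes and which appeared in single samples together with other genes of the pancreas.

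The members fell into 4 patterns. Clps, Pnliprp2 and Try4 were lowest in the lines that carry GIF-DTR, below every sample of control and ATP4B-DTR, and they followed Pgc from sample to sample. Clps and Try4 were also lower in ATP4B-DTR than in both controls, whereas Pnliprp2 overlapped. Pnliprp1 and Cel varied over a smaller range and followed Gif more closely than Pgc. Cela1 followed neither gene. Pnlip, Cpa1, Cpb1 and Ctrb1 were near the limit of detection in most samples and stood highest in a single one, the library ATP4B-DTR 2.

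**Figure D1:**
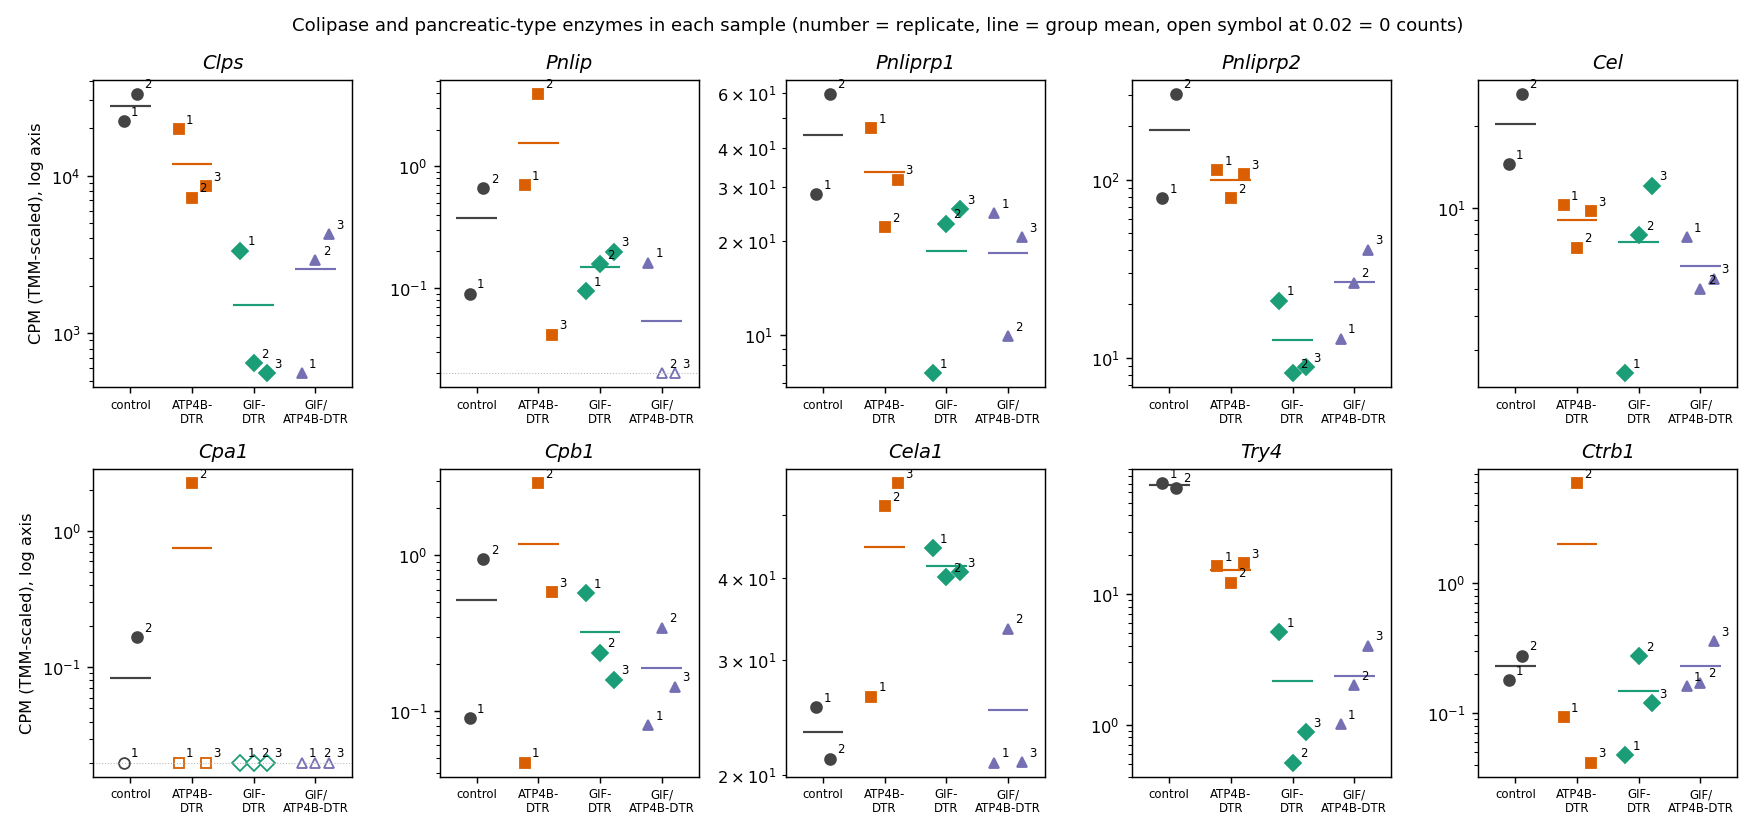
Level of each of the 10 genes in every sample, in CPM (counts per mega-count of library, TMM-scaled) on a log axis; numbers beside the points are replicates, lines are group means and open symbols, drawn at 0.02, are 0 counts. Clps, Pnliprp2 and Try4 fall from control to the lines that carry GIF-DTR, and the highest point of Pnlip, Cpa1, Cpb1 and Ctrb1 is ATP4B-DTR 2 (3.95, 2.24, 2.90 and 5.93 CPM).

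The sequence before the start of transcription is shown for 6 members, 3 that followed chief cell genes (Pnliprp2, Try4 and Cel) and 3 that were highest in ATP4B-DTR 2 (Pnlip, Cpa1 and Ctrb1). Each run holds the 250 bases before the RefSeq start (GRCm38.p6), 5′ to 3′ on the strand of the gene. Capitals mark the letters TGGGAAA (the core that the RBPJ subunit of the acinar factor PTF1 is known to bind), AAGGTCA (a half-site of orphan nuclear receptors), both searched on both strands, and TATAAA on the strand of the gene.

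Pnliprp2 (chr19:58759473-58759722, plus strand): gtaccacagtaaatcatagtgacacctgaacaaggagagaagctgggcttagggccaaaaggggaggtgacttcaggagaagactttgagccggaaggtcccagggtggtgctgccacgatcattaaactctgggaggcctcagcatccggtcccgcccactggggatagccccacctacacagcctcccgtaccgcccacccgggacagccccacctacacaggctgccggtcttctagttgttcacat
Try4 (chr6:41302022-41302271, plus strand): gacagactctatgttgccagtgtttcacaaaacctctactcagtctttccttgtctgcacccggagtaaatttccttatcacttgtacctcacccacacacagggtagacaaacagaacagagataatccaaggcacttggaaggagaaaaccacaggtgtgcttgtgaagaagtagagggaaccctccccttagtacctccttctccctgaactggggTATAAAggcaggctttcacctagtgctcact
Cel (chr2:28563404-28563653, minus strand): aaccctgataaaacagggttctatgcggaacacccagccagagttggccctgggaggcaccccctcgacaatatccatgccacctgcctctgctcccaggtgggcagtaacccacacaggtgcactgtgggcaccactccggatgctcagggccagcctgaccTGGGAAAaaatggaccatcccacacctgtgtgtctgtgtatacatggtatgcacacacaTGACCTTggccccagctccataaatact
Pnlip (chr19:58670115-58670364, plus strand): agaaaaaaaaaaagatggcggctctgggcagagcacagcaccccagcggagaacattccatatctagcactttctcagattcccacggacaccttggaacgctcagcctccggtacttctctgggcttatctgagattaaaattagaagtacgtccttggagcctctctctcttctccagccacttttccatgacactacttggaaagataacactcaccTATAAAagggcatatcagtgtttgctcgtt
Cpa1 (chr6:30638968-30639217, plus strand): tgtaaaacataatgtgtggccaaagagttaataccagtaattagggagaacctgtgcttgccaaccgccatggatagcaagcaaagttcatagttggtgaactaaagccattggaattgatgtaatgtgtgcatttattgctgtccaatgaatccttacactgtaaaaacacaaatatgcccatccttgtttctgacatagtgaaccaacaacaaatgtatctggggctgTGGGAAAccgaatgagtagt
Ctrb1 (chr8:111691011-111691260, minus strand): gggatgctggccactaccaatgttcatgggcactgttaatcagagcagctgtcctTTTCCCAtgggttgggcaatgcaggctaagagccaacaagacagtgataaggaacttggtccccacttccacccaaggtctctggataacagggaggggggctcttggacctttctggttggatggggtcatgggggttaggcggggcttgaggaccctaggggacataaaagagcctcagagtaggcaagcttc

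RefSeq promoters were matched for 9 of the 10 genes (not Clps). TGGGAAA was present before Cel, Cpa1 and Ctrb1, that is in 3 of 9, and in 6.82% of 32851 promoters of the same length. AAGGTCA was present before Cel and Cela1, and in 4.08% of all promoters. TATAAA was present before Try4, Pnlip and Cela1, and in 7.59% of all. CATATG, an E-box bound by MIST1 (Bhlha15), was found before 0 of the 9 and in 3.46% of all promoters. In none of the patterns with more than 1 member was a motif found before every member with a promoter in the table. A match describes letters only. The RefSeq start of Pnlip lies inside the span that GENCODE gives the gene.

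Colipase was by far the most abundant member. Its gene lies at chr17:28558149-28560766 (mm10, minus strand; Mir6969 overlaps it) and none of its 50-base windows is shared with another annotated gene. Its share of all counts was 1.77% and 2.86% in the 2 controls. The 9 other samples had shares from 0.0579% to 2.05%, and the widest 95% Wilson interval of a share spans 0.014 percentage points (counting error only). In CPM, controls 1 and 2 read 22201 and 33075. ATP4B-DTR 1 to 3 read 19725, 7226 and 8540, each below both controls. GIF-DTR 1 to 3 read 3340, 644 and 557, and GIF/ATP4B-DTR 1 to 3 read 559, 2903 and 4237. All 6 samples that carry GIF-DTR were below all 3 of ATP4B-DTR, while GIF-DTR and GIF/ATP4B-DTR overlapped. The edgeR log2 estimate against control was -1.22 ± 0.93 (SE) for ATP4B-DTR, -4.19 ± 0.99 for GIF-DTR and -3.43 ± 0.97 for the combined line. In bulk tissue, fewer cells of a type and less RNA per cell cannot be told apart.

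Clps varied widely within the lines, with GIF-DTR 1 well above GIF-DTR 2 and 3 and GIF/ATP4B-DTR 1 well below GIF/ATP4B-DTR 2 and 3. Pgc divided the same samples. Its levels in CPM were 21640, 4620 and 5534 for GIF-DTR 1 to 3, and 2279, 10566 and 11167 for GIF/ATP4B-DTR 1 to 3. For every 1000 Pgc counts the controls had 314 and 214 Clps counts, and ATP4B-DTR 1 to 3 had 399, 517 and 278. The same ratio was 154, 140 and 101 for GIF-DTR 1 to 3 and 245, 275 and 379 for GIF/ATP4B-DTR 1 to 3. The ratio in each GIF-DTR sample was thus below that in each sample of the other 3 groups.

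Pnliprp2, a lipase that also cleaves galactolipids, had 78.4 and 303 CPM in the 2 controls. The ATP4B-DTR samples, at 113, 78.8 and 107 CPM, lay within that range. GIF-DTR 1 to 3, at 20.9, 8.18 and 8.85 CPM, and GIF/ATP4B-DTR 1 to 3, at 12.8, 26.4 and 40.5 CPM, lay below every sample of the other groups. Taking the lines in the same order, the log2 estimates against control were -0.94 ± 0.64 (SE), -3.92 ± 0.69 and -2.84 ± 0.66.

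Try4, a trypsinogen of the mouse cluster on chromosome 6 (chr6:41302269-41305532), was the member of this pattern that was lowest in ATP4B-DTR relative to control. The controls had 70.6 and 65.0 CPM, and ATP4B-DTR 1 to 3 had 16.3, 12.2 and 17.1 CPM. GIF-DTR 1 to 3 followed with 5.11, 0.511 and 0.873 CPM, and GIF/ATP4B-DTR 1 to 3 with 1.01, 2.01 and 4.03 CPM. Neither ATP4B-DTR nor the lines with GIF-DTR overlapped the controls, and the log2 estimates were -2.16 ± 0.74 (SE), -5.00 ± 0.84 and -4.84 ± 0.83. The 2 controls differed little in Try4 (67.8 ± 4.0 CPM, SD, n = 2), although Clps and Pnliprp2 were higher in control 2. The gene shares 65.6% of its 50-base windows with other trypsinogen genes, its counts were fractional in 9 of 11 samples, and its level is less certain for that reason.

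**Figure D2:**
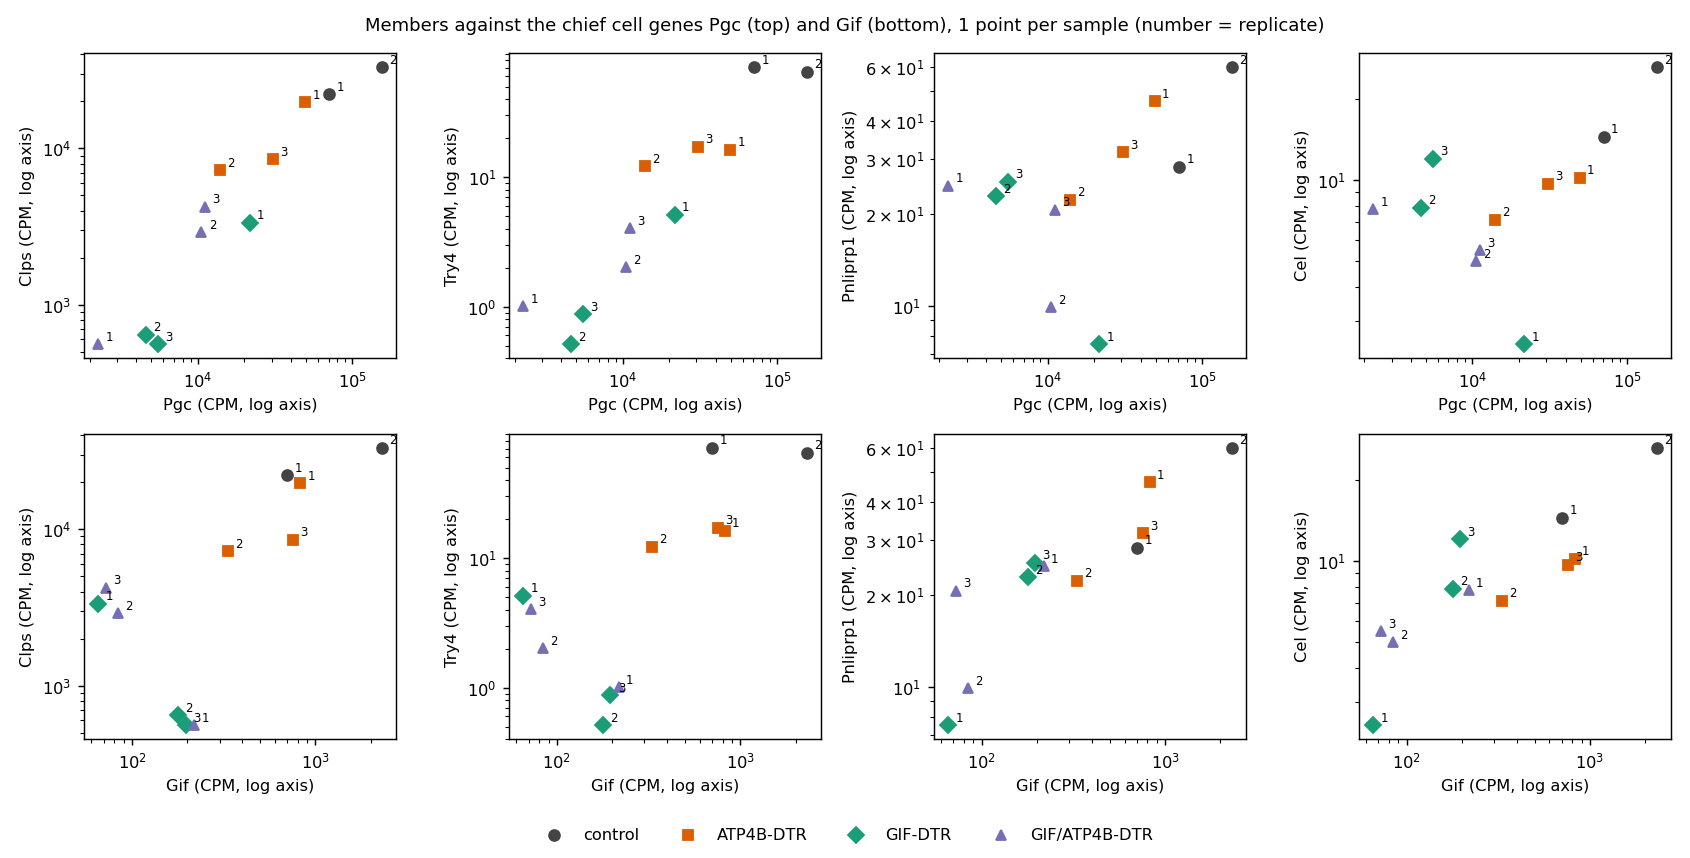
Clps, Try4, Pnliprp1 and Cel (vertical axes, CPM) against Pgc (upper row) and Gif (lower row), all on log axes, with 1 point per sample and the replicate number beside it. Clps and Try4 rise with Pgc (Pearson r on the log2 scale 0.949 and 0.936), and Pnliprp1 and Cel rise with Gif (0.881 and 0.870).

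The likeness to Pgc and to Gif was measured on log2(CPM + 0.5) over the 11 samples, which share the 4 group differences, so no p-value is given. With Pgc, Pearson's r and Spearman's rho were 0.949 and 0.945 for Clps, 0.885 and 0.855 for Pnliprp2, and 0.936 and 0.945 for Try4. With Gif the same 3 genes gave an r of 0.655, 0.750 and 0.743. With the mean log2 level of the 14 tested acinar-list genes, which include Pla2g1b, it was 0.853, 0.879 and 0.928, and Spearman's rho was 0.864, 0.773 and 0.873. The r of Pnliprp2 and Try4 with this mean was thus close to that with Pgc, while their rho was lower. The filter on low counts had dropped genes counted almost only in ATP4B-DTR 2, such as Prss2 and Gp2, and kept Pla2g1b and Try10. This mean is therefore not a measure of pancreas tissue. Try4 also shares 50-base windows with Try10. Without the 2 samples farthest from the median of Pgc (control 2 and GIF/ATP4B-DTR 1), the r with Pgc was 0.936, 0.828 and 0.941. Over the 9 samples of the lines alone it was 0.927, 0.828 and 0.887. Relative to Pgc, the log2 ratio of Clps had an SD of 0.71 over the samples, against an SD of 2.14 for its own log2 level. For Pnliprp2 and Try4 the ratio to Pgc had an SD of 0.85 and 0.78, against 1.66 and 2.16.

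Nearness by pattern was ranked among 9196 genes outside the member list with a mean of at least 8 CPM. The one most like Clps was Pla2g1b, a secreted phospholipase A2 of pancreatic juice (Pearson r = 0.991 over 11 samples). Its order over the samples was the order of Clps (Spearman rho = 1). Chia1 (r = 0.967), Pgc (0.949), Tmed6 (0.933) and Pde2a (0.898) came next. The members Try4 and Pnliprp2, left out of this ranking, had an r of 0.956 and 0.952 with Clps. Among the ranked genes, Chia1, Pla2g1b and Tmed6 were also the 3 nearest to Pnliprp2 (0.959, 0.958 and 0.937) and to Try4 (0.969, 0.955 and 0.940). Pla2g1b was itself abundant, with a control mean of 11985 ± 6678 CPM (SD, n = 2). The means of the lines (n = 3 each) were 3813 ± 2268 for ATP4B-DTR, 407 ± 425 for GIF-DTR and 720 ± 577 for the combined line.

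Pnliprp1, a relative of pancreatic lipase with little known activity of its own, had a narrower range, from 7.52 to 59.8 CPM. The controls, at 28.3 and 59.8 CPM, overlapped ATP4B-DTR 1 to 3, at 46.3, 22.2 and 31.6 CPM. GIF-DTR 1 to 3 had 7.52, 22.8 and 25.4 CPM, and GIF/ATP4B-DTR 1 to 3 had 24.7, 9.92 and 20.6 CPM. All 6 were below both controls, but GIF-DTR 2 and 3 and GIF/ATP4B-DTR 1 were above ATP4B-DTR 2. Its log2 estimates against control were -0.40 ± 0.57 (SE) for ATP4B-DTR, -1.24 ± 0.57 for GIF-DTR and -1.26 ± 0.57 for the combined line.

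Cel, the lipase that bile salts activate, was highest in the controls, at 14.5 and 26.2 CPM. ATP4B-DTR 1 to 3 had 10.2, 7.11 and 9.69 CPM. GIF-DTR 1 to 3 had 2.46, 7.91 and 12.0 CPM, and GIF/ATP4B-DTR 1 to 3 had 7.79, 5.0 and 5.49 CPM. Each sample of the lines was below both controls, and the 3 lines overlapped one another. The log2 estimates were -1.17 ± 0.50 (SE), -1.44 ± 0.50 and -1.74 ± 0.51.

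Pnliprp1 and Cel rose and fell with Gif, with an r of 0.881 and 0.870 and a rho of 0.927 and 0.800, and were less like Pgc (r of 0.444 and 0.477) and the acinar list (0.643 and 0.657). They did so over a narrower range than Gif: the log2 ratio to Gif had an SD of 1.00 and 1.02, wider than that of their own log2 levels (0.83 for both), and the ratio to the acinar list had an SD of 0.71 and 0.70. Without the 2 samples farthest from the median of Gif (control 2 and ATP4B-DTR 1) the r with Gif was 0.779 and 0.796. Outside the member list, Gif was the third nearest gene to Pnliprp1, after Ube4b (0.905) and Klhdc10 (0.887). The 3 nearest to Cel were Phc3 (0.932), Blm (0.905) and Mbd5 (0.901).

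In the 6 samples that carry GIF-DTR, Gif and Pgc ran in different orders, and the members divided with them. For Gif, GIF-DTR 1 to 3 had 65.5, 178 and 196 CPM, and GIF/ATP4B-DTR 1 to 3 had 218, 83.7 and 72.3. GIF-DTR 1 and GIF/ATP4B-DTR 2 and 3 thus had the 3 lowest levels of Gif and the 3 highest of Pgc. These samples do not share a line or a level of Y-linked genes. They had the 3 highest levels of Clps, Pnliprp2 and Try4 of the 6, and the 3 lowest of Pnliprp1 and Cel. GIF-DTR 1 is the extreme case, with the lowest Pnliprp1 (7.52 CPM), Cel (2.46 CPM) and Gif (65.5 CPM) of all 11 samples and more Pgc (21640 CPM) than ATP4B-DTR 2 (13978 CPM).

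**Figure D3:**
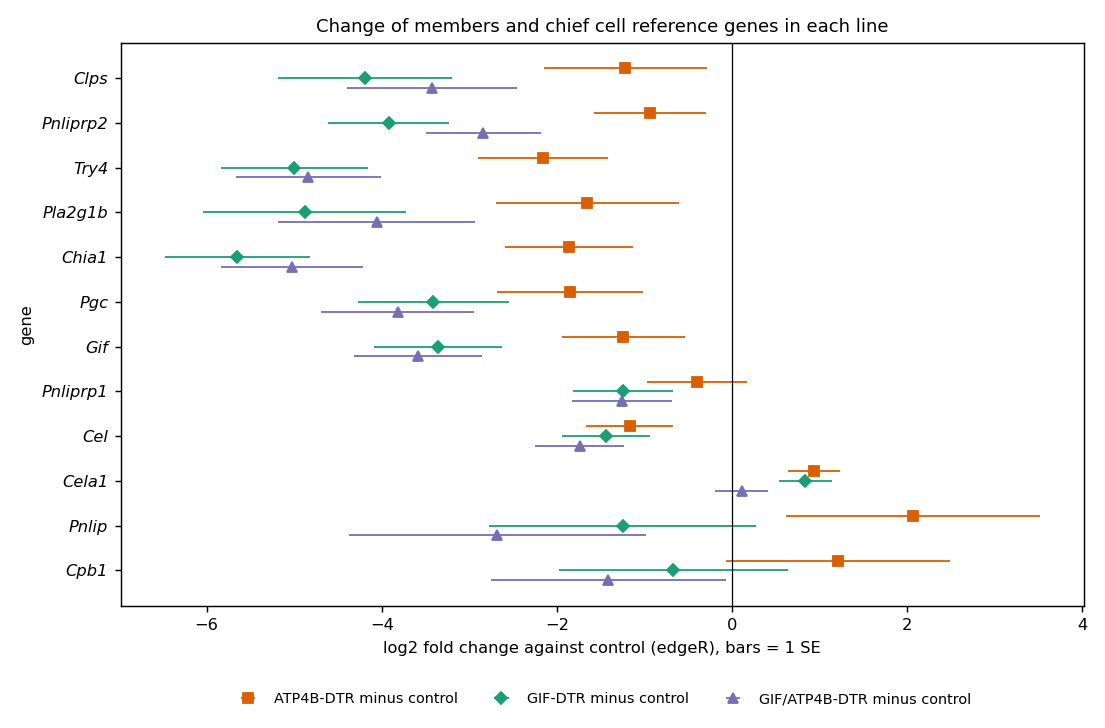
Log2 fold change against control (horizontal axis; edgeR estimate, bars 1 SE) of the 8 members that passed the filter on low counts and of 4 reference genes, for the 3 lines. Clps, Pnliprp2 and Try4 lie between -5.00 and -2.84 in the lines that carry GIF-DTR, beside Pla2g1b, Chia1, Pgc and Gif, and Cela1 lies at 0.94, 0.84 and 0.11.

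Cela1, an elastase, did not follow the chief cell genes (r of -0.147 with Pgc and -0.164 with Gif). The controls had 25.4 and 21.2 CPM, below ATP4B-DTR 1 to 3 (26.3, 51.5 and 55.9 CPM) and GIF-DTR 1 to 3 (44.5, 40.1 and 40.9 CPM). GIF/ATP4B-DTR 1 to 3, at 20.9, 33.5 and 20.9 CPM, overlapped the controls. The log2 estimates were 0.94 ± 0.30 (SE), 0.84 ± 0.30 and 0.11 ± 0.30. The nearest genes by pattern outside the member list were Pgm3 (0.878), Cst8 (0.871) and Epsti1 (0.835).

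Levels of Cela1 divided with the Y-linked genes. In the 5 samples with low Y-linked levels (ATP4B-DTR 2 and 3 and all of GIF-DTR; at most 2 counts of Ddx3y and of Eif2s3y, with Uty and Kdm5d reduced and fractional) it was 40.1 to 55.9 CPM, and in the other 6 it was 20.9 to 33.5 CPM, with no overlap. All GIF-DTR samples are of the first kind and all controls of the second, so the line and this division cannot be told apart there. With the mean log2 level of 4 Y-linked genes as a covariate, the edgeR estimates for Cela1 were 0.24 in ATP4B-DTR and -0.13 in GIF-DTR. That mean level was near constant in every group except ATP4B-DTR (5.46, 0.27 and -0.07 in samples 1 to 3). The slope of the covariate thus rests mainly on those 3 samples and is carried over to GIF-DTR against control. Estimates and calls with the covariate describe this fit only and do not separate the line from the division. Clps overlapped between the 2 kinds of sample over the whole series, since GIF/ATP4B-DTR 1, with high Y-linked levels, had 559 CPM. Within ATP4B-DTR, the line that holds both kinds, it was higher in ATP4B-DTR 1 (19725 CPM) than in ATP4B-DTR 2 and 3 (7226 and 8540 CPM). With the covariate its estimates against control were -0.62 for ATP4B-DTR, -3.02 for GIF-DTR and -3.51 for the combined line.

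The remaining 4 members were scarce. Pnlip, pancreatic lipase itself, lies at chr19:58652498-58681788, next to Pnliprp1 (chr19:58728887-58744169) and Pnliprp2 (chr19:58759719-58777534). It had 90 counts (3.95 CPM) in ATP4B-DTR 2 and between 0 and 15 counts in the other 10 samples, a ratio of 5.66 in CPM to the next highest. The 3 neighbouring lipase genes thus had 3 different patterns. Cpa1, a carboxypeptidase, had 51 counts in ATP4B-DTR 2, 3 counts in control 2 and 0 in 9 samples, where a count of 0 allows a level of up to 0.107 to 0.142 CPM (3 counts; counting error only). Cpb1, another carboxypeptidase, had 66 counts in ATP4B-DTR 2 and between 1 and 17.1 elsewhere. Ctrb1, chymotrypsinogen B, had 135 counts in ATP4B-DTR 2 and between 1 and 10 elsewhere, a ratio of 16.6 in CPM to the next highest sample.

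Together Pnlip, Cpa1, Cpb1 and Ctrb1 reached 15.0 CPM in ATP4B-DTR 2. Control 2 came next with 2.05 CPM, and the remaining 9 ranged from 0.359 to 0.838 CPM. ATP4B-DTR 1 and 3, of the same line, had 0.838 and 0.663 CPM. For Pnlip and Cpb1 the edgeR estimates in ATP4B-DTR against control, 2.07 ± 1.45 (SE) and 1.21 ± 1.28, rest on that 1 library: without it they were -0.01 and -0.66. Cpa1 and Ctrb1 did not pass the filter on low counts and have no estimate.

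**Figure D4:**
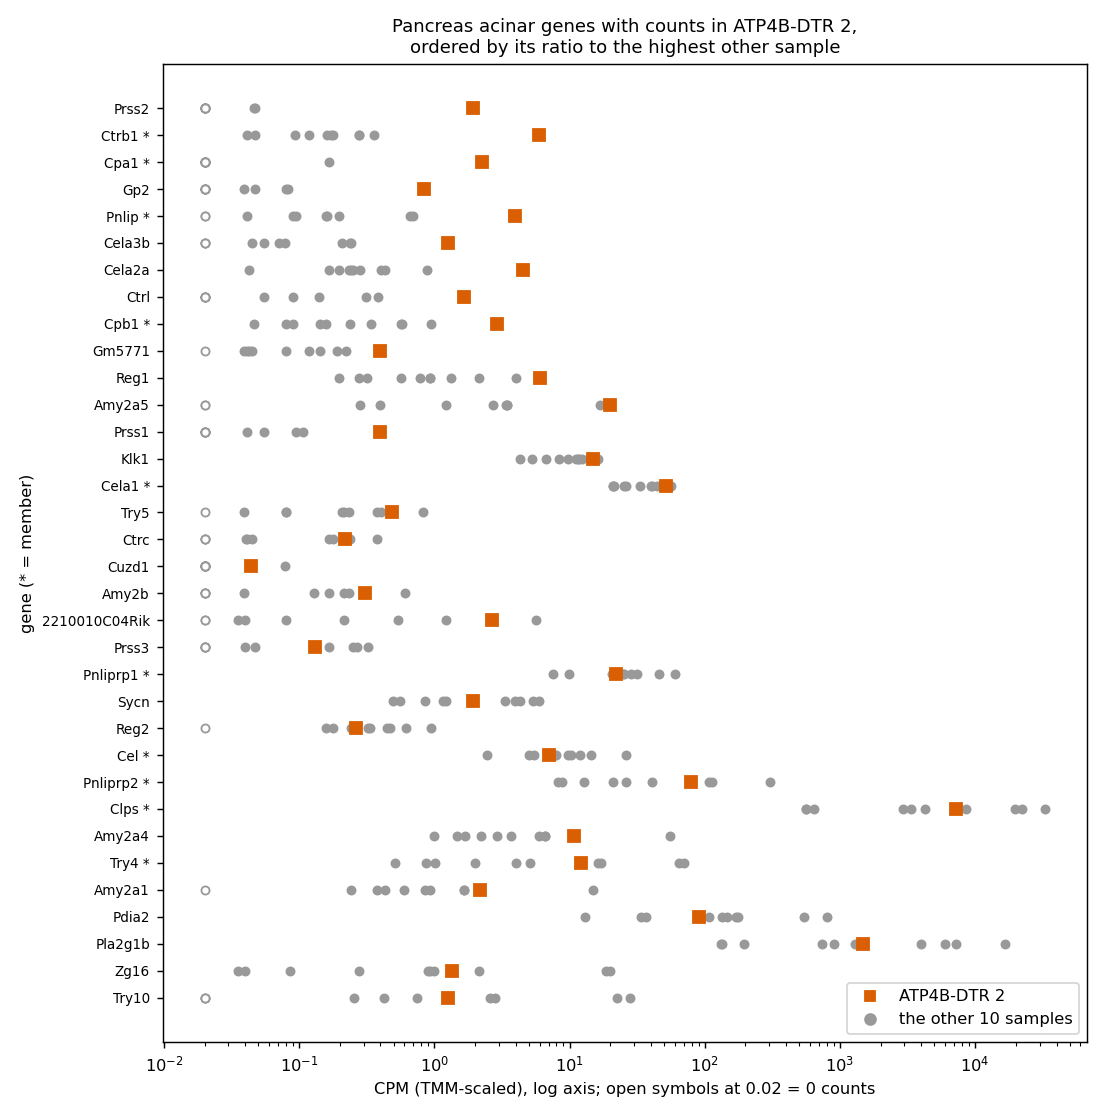
Level (CPM, log axis) of members (asterisk) and other acinar genes with counts in ATP4B-DTR 2 (squares) beside the other 10 samples (circles; open circles at 0.02 are 0 counts), ordered by the ratio of ATP4B-DTR 2 to the highest other sample; 2 genes with counts there are not drawn. At the top ATP4B-DTR 2 stands apart for Prss2, Ctrb1, Cpa1 and Gp2, while Clps, Pnliprp2, Try4 and Pla2g1b are inside the range of the others.

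The other genes of the acinar list were read in the same sample. Of 37 listed acinar enzymes and secreted proteins that are not members, 31 were in the table and 29 had counts. ATP4B-DTR 2 was the highest of the 11 samples for 9 of the 29 and control 2 for 8, while no other sample was highest for more than 3. Prss2, the main mouse trypsinogen of the pancreas, had 44 counts in ATP4B-DTR 2 and at most 1.01 elsewhere. Elastase Cela2a had 104 counts against at most 16, Cela3b 29 against at most 6, the chymotrypsin-like Ctrl 38 against at most 9, and Gp2, a zymogen granule membrane protein, 19 against at most 2. Amy2a5 (19.8 against at most 16.7 CPM) and Reg1 (6.06 against at most 4.05 CPM) were less set apart, as was Gm5771 (9 against at most 4.03 counts).

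Clps, Pnliprp2, Try4, Pnliprp1 and Cel were not among the genes raised in that sample. Its Clps (7226 CPM) was the lowest of its line, as were its Pgc (13978 CPM) and Pla2g1b (1483 CPM). The acinar genes set apart there stood at a few CPM (5.93 for Ctrb1, 3.95 for Pnlip and 1.93 for Prss2). A rise of that size would be small beside Clps, Pla2g1b and Pnliprp2 (78.8 CPM) and could not be read from their levels. Islet and duct genes were measured beside them. Ins1 and Ins2 (insulin) had 0 counts in all 11 samples, and the 8 islet genes summed to 2.81 CPM there, below the 4.02 to 8.06 CPM of the rest. The 6 duct genes summed to 155 CPM, within the 76.0 to 155 CPM of the other samples, with Slc4a4 1.10 times its next highest level. The acinar transcription factor genes Ptf1a (1.84 CPM) and Rbpjl (0.483 CPM) were below their highest levels elsewhere (5.21 and 2.91 CPM), as was Gata4, while Nr5a2 had 3 counts there and at most 2 elsewhere. Of the 6 forestomach squamous genes, Krt13 was also highest in ATP4B-DTR 2 (20.2 CPM), followed by ATP4B-DTR 1 (13.4 CPM), with the remaining 9 samples at 0.277 to 4.10 CPM. The others did not go with it: Krt5 and Sprr3 were at 0 throughout, Krt4 and Krt14 were higher in another sample, and Lor was at its lowest there. Whether acinar tissue entered that library was not tested.

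Per kilobase of exon, so that genes can be set side by side, mean levels over the 11 samples put Clps first at 15326 CPM per kb, against 24606 for Pgc and 339 for Gif. Pnliprp2 (46.1), Try4 (22.1), Cela1 (15.0), Pnliprp1 (12.2) and Cel (4.68 CPM per kb) followed, and Ctrb1, Pnlip, Cpb1 and Cpa1 were at 0.792, 0.251, 0.168 and 0.125. Clps was above every other member in each sample. Pnliprp2, Try4, Cela1, Pnliprp1 and Cel changed places with the line. In control their means were 121, 84.7, 10.1, 19.8 and 9.67 CPM per kb, and in GIF-DTR 8.03, 2.70, 18.1, 8.35 and 3.55. In control 1 Pnliprp2 (49.8) was below Try4 (88.2). The means of Ctrb1, Pnlip and Cpa1 come mostly from ATP4B-DTR 2.

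Of the 8 members that passed the filter on low counts, 4 had samples of ATP4B-DTR outside the range of the controls (Clps, Cel and Try4 lower, Cela1 higher), beside 48.5% of the 14889 genes tested. In GIF-DTR it was 6 of 8, beside 48% of all genes, and in GIF/ATP4B-DTR 5 of 8, beside 56.3%. The median log2 fold change of these 8 was -0.67, -1.34 and -2.21 in the 3 comparisons, and that of all tested genes -0.01, -0.01 and -0.04. These contrasts were known when the members were chosen, so the counts describe them only.

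Chief cell genes outside the member list were tested in the same fit. This list and the acinar list were chosen with earlier results of these samples known, and Pgc and Gif are named in the question itself, so their calls are not independent evidence. Of 12 listed genes 11 were in the table (Gif and Cblif are the same gene) and 9 were tested. In GIF-DTR 3 of 9 were lower at an edgeR Benjamini-Hochberg adjusted p under 0.05, where 6.82% of all tested genes were lower: Pgc (-3.41 ± 0.86 log2 units, SE, adjusted p = 0.0245), Gif (-3.36 ± 0.73, 0.0169) and Chia1 (-5.65 ± 0.83, 0.00309). The median of the list was -2.49. Without control 2 the count was 1 (Chia1), without GIF-DTR 2 or 3 the call of Pgc was lost, without GIF-DTR 1 the count was 5, and with the Y-linked covariate it was 0. In GIF/ATP4B-DTR 5 were lower (15.4% of all genes), namely the same 3, Xbp1 and Rnase1, and Ctsz was higher (18.2% of all genes), with a list median of -3.00. Without control 2 the calls of Pgc and Ctsz were lost.

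In ATP4B-DTR 1 of the 9 genes passed the threshold as lower, where 9.39% of all genes did, although the list median was -1.24 and 6 of the 9 did not overlap control (beside 48.5% of all genes): Pgc, Pga5, Chia1, Rnase1 and Xbp1 below it and Ctsz above it. The DESeq2 Wald test called 3. The gene past the edgeR threshold was Rnase1, a secreted ribonuclease (-3.94 ± 0.36 log2 units, edgeR adjusted p = 0.000125). Control had 31.4 ± 0.0330 CPM of it (SD, n = 2), and the line means (n = 3 each) were 2.04 ± 0.208 for ATP4B-DTR, 15.9 ± 6.11 for GIF-DTR and 1.10 ± 0.534 for the combined line. GIF-DTR exceeded ATP4B-DTR in Rnase1 by a log2 difference of 2.96 ± 0.34 (edgeR adjusted p = 0.00310), the 1 gene of the list past the threshold there, where 0.403% of all genes were higher. The order of the 2 single lines was thus the reverse of that of Clps, Pnliprp2 and Try4. The 9 parietal cell genes, a check of the other ablated cell type, were lower in 5 cases for ATP4B-DTR (beside 9.39% of all genes), 3 for GIF-DTR (6.82%) and 7 for the combined line (15.4%).

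Some acinar-list genes other than the members passed the threshold as lower in the lines that carry GIF-DTR. In GIF-DTR 6 of the 14 tested were lower (list median -2.09), and in GIF/ATP4B-DTR 7 of 14 (median -2.65), beside 6.82% and 15.4% of all genes. With the Y-linked covariate the GIF-DTR count was 1 (2210010C04Rik) and the GIF/ATP4B-DTR count 7. Without control 2 the counts were 2 and 4, and without GIF-DTR 2 or 3 the GIF-DTR count was 3 or 4. Pla2g1b was lower by -4.88 ± 1.16 log2 units in GIF-DTR (edgeR adjusted p = 0.0244) and -4.06 ± 1.12 in GIF/ATP4B-DTR (0.0232), and passed in neither without control 2, nor in GIF-DTR without GIF-DTR 2 or 3, nor in GIF/ATP4B-DTR without GIF/ATP4B-DTR 2. Trypsinogen Try10 was lower by -7.53 ± 1.22 (0.00458) and -6.16 ± 1.09 (0.00243). The amylase genes Amy2a1 and Amy2a4 were called lower in both as well, but control 2 alone held the high levels (14.9 and 55.1 CPM) and both calls were lost without it. Counts of Amy2a1, Amy2a4 and Pdia2, a protein disulfide isomerase, were fractional in 10, 11 and 11 samples.

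In ATP4B-DTR 3 of the 14 were lower, beside 9.39% of all genes: Try10 (-3.49 ± 0.95 log2 units, edgeR adjusted p = 0.0278), Pdia2 (-2.30 ± 0.42, 0.00478) and Sycn, a zymogen granule protein (-1.60 ± 0.39, 0.0141). Leaving out any sample of control or ATP4B-DTR ended the call of Try10, and leaving out control 1 that of Sycn. With the Y-linked covariate Pdia2 alone of the 3 was called. Sycn differed from the other called genes in GIF-DTR, where its level (4.76 ± 1.08 CPM, SD, n = 3) was close to that of control (4.36 ± 1.46, n = 2). ATP4B-DTR had 1.43 ± 0.432 CPM and the combined line 0.634 ± 0.187. Between GIF-DTR and ATP4B-DTR 1 gene passed as lower, 2210010C04Rik (0.0873% of all genes; edgeR adjusted p = 0.0297), a trypsinogen-like gene at no more than 1 count per GIF-DTR sample, highest of its line in ATP4B-DTR 2 (2.68 CPM). That call was lost when any 1 sample of either line except ATP4B-DTR 3 was left out, and with the Y-linked covariate.

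Depth was similar across samples, at 20.7 to 27.9 M counts (M, mega). Controls 1 and 2 differed in the abundant chief cell genes (Pgc of 70812 and 154891 CPM, Gif of 702 and 2303 CPM), so fold changes against control depend on which control is used. Over 17 alternative settings the log2 estimate of Clps ranged from -5.52 to -3.02 for GIF-DTR, from -4.00 to -2.95 for the combined line and from -1.83 to -0.62 for ATP4B-DTR. That of Pnliprp2 in ATP4B-DTR ranged from -1.60 to 0.34 and thus had no fixed direction, while that of Try4 stayed between -2.25 and -2.02.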

How the data were processed

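Per the labels' protocols, TruSeq stranded mRNA libraries were prepared for the 11 mouse gastric corpus samples. The authors deposited expected counts per gene; 30.7% of nonzero values are fractional. The genome build was mm10, per the submitters' processing notes; the aligner, counter and annotation are not given in the sources used here. Identifiers were matched without version to GENCODE M21 (34582 of 34866), which gave positions.

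The design assumed whole counts, so values were rounded. Samples were grouped by genotype. All 11 entered 1 edgeR 4.0.16 quasi-likelihood fit (R 4.3.3; robust, TMM scaling, filterByExpr, which left 14889 genes), and p-values were Benjamini-Hochberg adjusted over all of them at a threshold of 0.05. The SE is the log2 fold change divided by the square root of F. CPM are TMM-scaled. The fit was tested on simulated counts in which every gene had the common biological coefficient of variation (26.6%). Genes such as Clps varied more, so that test does not cover them.

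Members and lists were chosen with earlier results of these data known. Named genes are the members, list genes and, among genes with a mean of at least 8 CPM, those with the highest Pearson r to a member on log2(CPM + 0.5): 5 for Clps, 3 for the others. Alternatives were unrounded values, DESeq2 1.42.0 size factors or its Wald test, no low-count filter, only the 2 groups compared, a Y-linked covariate and leaving out each sample. Promoters are RefSeq's (GRCm38.p6).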

Additional observations from a re-analysis of the deposited data

Results flagged for a closer look

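The effect of adding ATP4B-DTR on Cela1 had opposite signs without and with GIF-DTR. Its mean log2 level was 0.87 higher in ATP4B-DTR than in control and 0.77 lower in GIF/ATP4B-DTR than in GIF-DTR (a difference of -0.77), which is a gap of 1.64 between the effects. Every ATP4B-DTR sample was above both controls, and every GIF/ATP4B-DTR sample was below all GIF-DTR samples. The difference itself was not tested, because the member was chosen with these levels known. In the first contrast ATP4B-DTR 1, with high Y-linked levels, stood at 26.3 CPM beside controls at 25.4 and 21.2, and ATP4B-DTR 2 and 3, with low ones, at 51.5 and 55.9. With the Y-linked covariate the estimate fell from 0.94 to 0.24. In the second contrast GIF-DTR samples had low and GIF/ATP4B-DTR samples high Y-linked levels, so line and Y-linked level cannot be told apart.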

How the results depend on the processing

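No paired analysis was possible because only the controls carry replicate numbers in their titles. The counts of calls could only stay or move between settings, since a count has no direction that could reverse. Member estimates for Clps and Try4 kept their direction in every alternative and comparison, whereas those of Pnlip, Cpb1, Pnliprp1, Pnliprp2, Cel and Cela1 crossed 0 in at least 1 comparison. The slope of the Y-linked covariate rests mainly on ATP4B-DTR, the line that holds both kinds of sample. With this covariate the calls over all genes were 2012 in ATP4B-DTR (3211 without it), 491 in GIF-DTR (2500) and 22 between GIF-DTR and ATP4B-DTR (73). Acinar-list calls were then 1 in ATP4B-DTR, 1 in GIF-DTR and 0 between these lines, and chief cell calls were 0 in GIF-DTR. By the DESeq2 Wald test chief cell calls were 3 in ATP4B-DTR, 5 in GIF-DTR and 2 between these lines, acinar calls there were 5, and 383 genes were called in all. With only the 2 groups fitted, chief cell calls in ATP4B-DTR were 2 and acinar calls between the lines 0.

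Leaving out each sample gave 1315 to 3329 calls over all genes in ATP4B-DTR, 871 to 2629 in GIF-DTR, 2874 to 5042 in GIF/ATP4B-DTR (5005 with all samples) and 17 to 140 between GIF-DTR and ATP4B-DTR. Chief cell calls ranged over 1 to 2, 1 to 5, 4 to 7 and 1 to 2 in these comparisons, and acinar calls over 2 to 3, 2 to 6, 4 to 7 and 0 to 2. The lowest counts against control came without control 2; for GIF-DTR, all-gene counts were also 1136 without control 1 and 1091 without GIF-DTR 3. Between GIF-DTR and ATP4B-DTR the count was 17 without ATP4B-DTR 1, 17 without ATP4B-DTR 2 and 140 without ATP4B-DTR 3. The levels of Pnlip, Cpa1, Cpb1 and Ctrb1 rest on few reads in most samples.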
